A study of Mus musculus with 18 samples.

Results

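The collagens and the enzymes that build them were examined in liver bulk RNA-seq of 18 mice. Members were chosen by gene symbol: every gene named as a collagen chain, together with 15 genes for prolyl and lysyl hydroxylation, folding, procollagen cleavage and cross-linking. The table held 40 of them among 15052 genes, namely 26 collagen chains and 14 of the 15 enzymes and chaperones. The rule itself uses names only, though these genes were picked for study with earlier results of the data known. The chains and enzymes lie on 17 chromosomes, and none is within 20 Mb of Apoe.

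The mice formed 4 groups in the chronic-plus-binge ethanol model: pair-fed WT (4 mice), pair-fed Apoe KO (5 mice), EtOH-fed WT (5 mice) and, numbered 1, 2, 4 and 5, EtOH-fed Apoe KO (4 mice). WT mice were C57BL/6J, and Apoe KO mice lacked Apoe in the whole body, so that the deletion is not limited to macrophages, hepatocytes or any other cell type. All were 10 to 12 weeks old and had 5 days to adapt to a liquid diet. The EtOH-fed mice then received 5% (v/v) ethanol for 10 days and a gavage of 5 g/kg ethanol on day 11, the pair-fed mice a control diet and 9 g/kg dextrin-maltose, and livers were taken 9 h after the gavage. Every label gives the sex as female, whereas the methods of the study name either sex.

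Collagens are secreted proteins whose chains wind around each other into a long helix. Fibrillar collagens (types I, III and V among others) form the fibres of scar tissue, type IV forms the network of basement membranes, type VI forms beaded filaments, and FACIT collagens sit on the surface of fibrils. Inside the cell, proline is hydroxylated by the P4ha enzymes and lysine by the Plod enzymes, and Serpinh1 (also called HSP47) is a chaperone made for procollagen. Outside, Adamts2 and Bmp1 cut off the ends of procollagen, Pcolce enhances the cut by Bmp1, and Lox and its relatives oxidise lysine so that chains become cross-linked. In liver, activated stellate cells are known as the main source of fibrillar collagen.

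Promoter sequence is shown for Col1a2 and Col3a1, whose levels moved together, and for Col27a1, a fibrillar chain that moved the other way. The windows run from 250 bases before to 50 bases after the start of each gene in RefSeq (GRCm38.p6), and all 3 are on the plus strand: chr6:4505368-4505667 for Col1a2, chr1:45311288-45311587 for Col3a1 and chr4:63215162-63215461 for Col27a1. In GENCODE M21 the gene models of Col1a2 and Col27a1 start further upstream, at chr6:4504814 and chr4:63214004. By that annotation these windows lie inside the gene models. Capitals mark the motifs searched on either strand, which are the CCAAT box (letters CCAAT), the GC box (letters GGGCGG) and the TATA box (letters TATAAA), and no match overlaps another.
Col1a2: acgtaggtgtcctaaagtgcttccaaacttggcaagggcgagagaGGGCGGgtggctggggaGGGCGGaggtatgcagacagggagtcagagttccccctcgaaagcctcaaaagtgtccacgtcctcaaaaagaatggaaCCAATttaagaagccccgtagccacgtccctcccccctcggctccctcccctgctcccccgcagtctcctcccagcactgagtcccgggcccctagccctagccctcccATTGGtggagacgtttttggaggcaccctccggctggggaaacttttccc
Col3a1: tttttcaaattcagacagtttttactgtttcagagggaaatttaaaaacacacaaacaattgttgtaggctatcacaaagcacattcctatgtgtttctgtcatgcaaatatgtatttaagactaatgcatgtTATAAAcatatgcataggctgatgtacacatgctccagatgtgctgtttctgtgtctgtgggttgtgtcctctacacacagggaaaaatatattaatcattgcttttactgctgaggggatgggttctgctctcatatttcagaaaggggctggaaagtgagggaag
Col27a1: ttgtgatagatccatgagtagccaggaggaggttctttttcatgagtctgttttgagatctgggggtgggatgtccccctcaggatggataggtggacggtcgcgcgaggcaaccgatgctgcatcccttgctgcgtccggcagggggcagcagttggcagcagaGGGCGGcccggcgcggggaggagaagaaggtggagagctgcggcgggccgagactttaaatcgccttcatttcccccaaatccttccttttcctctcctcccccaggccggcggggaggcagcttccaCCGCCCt
Col1a2 held 2 matches to CCAAT and 2 to GGGCGG, Col3a1 held 1 to TATAAA, and Col27a1 held 2 to GGGCGG. The GC content of the windows was 61.0%, 37.7% and 61.7%, in that order. Of all 32851 windows in the RefSeq table, 37.4% hold CCAAT, 35.7% GGGCGG and 13.6% TATAAA. For 29 of the 40 genes a window was matched by symbol, and of these 9 held CCAAT, 21 held GGGCGG and 5 held TATAAA.

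Several members are neighbours on a chromosome. Col4a1 (chr8:11198423-11312826, minus strand) and Col4a2 (chr8:11312805-11449287, plus strand) lie head to head, and their gene models in GENCODE M21 (GRCm38) overlap by 22 bases. These bases are shown because reads that fall in them belong to either gene unless strand was used in counting, which is not given in the sources used here.
Col4a1 and Col4a2, shared bases at chr8:11312805-11312826, plus strand: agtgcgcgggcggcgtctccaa
Col4a4 and Col4a3 lie head to head as well, with 71 bases between them. Col3a1 and Col5a2 are 24.6 kb apart on chromosome 1, and Col6a2 and Col6a1 are 85.2 kb apart on chromosome 10.

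The value of a gene in a mouse is a read count that had been scaled by the authors to a nearly common total (32267493 to 32292618 per mouse) and rounded, and is called the scaled count here. In 11 mice the spacing of low values gave 5.60 to 29.1 M reads on genes. The shallowest was pair-fed WT mouse 1, where each read counts 5.76 units. The 7 others used every low whole number, so that 1 read is worth about 1 unit or less. They were EtOH-fed WT mice 1, 2, 3 and 5, EtOH-fed Apoe KO mouse 1 and pair-fed Apoe KO mice 2 and 5. EtOH-fed WT mouse 4 had 24.6 M reads, and EtOH-fed Apoe KO mice 2, 4 and 5 had 13.5, 7.88 and 8.39 M. Depth thus differed between these groups, and its part in the differences was not tested. Apoe was 611230 to 798431 in the 9 WT mice and 8586 to 108651 in the 9 Apoe KO mice, so that the genotype labels hold. EtOH-fed Apoe KO mouse 1 went against its sex label: Xist was 826 there and 15227 to 30379 in the other mice, and Ddx3y was 1077 against 2 to 118. Many counts of calls, shares and marker levels that include this mouse are therefore also given without it, though not the counts at an unadjusted p. Hepatocyte markers (Alb, Apoa1, Ttr, Cps1 and Cyp2e1) summed to 2138325 to 3860945 in every liver.

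In pair-fed WT livers the collagen chain with the highest level was Col18a1, a multiplexin of basement membranes from which endostatin is cut. Per kb of exon, its mean level was 2885 scaled counts, compared with 282 for Col27a1, 265 for Col1a1, 210 for Col3a1, 182 for Col4a1 and 2.79 for Col7a1, the lowest of the 40. Bmp1, the procollagen C-proteinase, was second at 743 per kb. Col18a1 made up 49.9 to 68.3% of the summed level per kb of the 26 chains in pair-fed WT, 65.5 to 74.5% in pair-fed Apoe KO, 55.0 to 70.9% in EtOH-fed WT and 36.9 to 58.6% in EtOH-fed Apoe KO mice (up to 54.1% without mouse 1). The chains of types I and III (Col1a1, Col1a2 and Col3a1) together made up 16.4 to 30.5% in EtOH-fed Apoe KO mice and 6.498 to 16.8% in the 14 other mice. The lowest of these was mouse 1, within the range of the other groups, and without it the range was 20.9 to 30.5%; this measure of composition has no test. Col27a1 took 5.01 to 7.27% of the sum in pair-fed WT and 0.577 to 1.15% in EtOH-fed Apoe KO mice (0.605 to 1.15% without mouse 1).

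**Figure D1:**
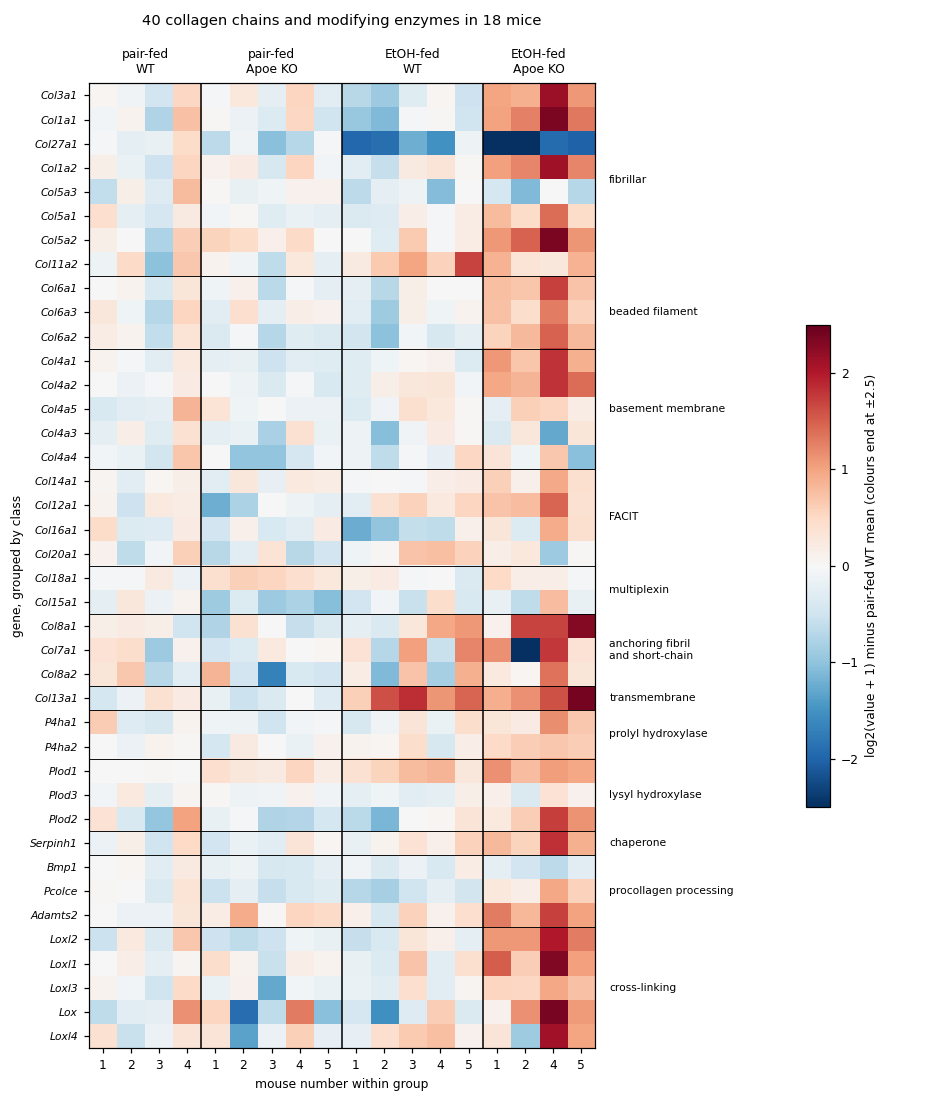
Heat map of the 40 genes (rows, grouped by class) in 18 mice (columns, numbered within group). Colour gives log2(value + 1) minus the mean of the 4 pair-fed WT mice, with colours ending at ±2.5; the EtOH-fed Apoe KO columns are red for most fibrillar, type IV and type VI chains and blue for Col27a1, and mouse 4 is the most intense of them.

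Apoe KO was compared with WT among EtOH-fed mice to ask whether loss of Apoe changes the matrix programme of the ethanol-fed liver. Of the 40 genes, 14 were higher without Apoe (limma on log2(value + 1), Benjamini-Hochberg adjusted p under 0.05 over all genes) and 0 were lower. Among all 15052 genes, 4.25% were called higher and 0.445% lower. At an unadjusted p under 0.05, 25 of the 40 were higher and 1 was lower, beside 2426 and 419 of all genes. The 14 were 5 of 8 fibrillar chains, all 3 type VI chains, 2 of 5 type IV chains, 2 of 3 processing genes and 2 of 5 cross-linking enzymes. The median log2 difference of the 40 was 0.65, beside 0.11 over all genes, and 33 lay above 0. With median-of-ratios size factors the median of all genes moved to −0.02 and that of the 40 to 0.52, with 14 genes called higher and 1, Col27a1, lower; over all genes that scaling turned 639 higher and 67 lower calls into 379 and 127. Without EtOH-fed Apoe KO mouse 1, 13 of the 40 were higher and 0 lower, beside 565 and 55 of all genes. Col5a1, Col6a3 and Loxl1 lost their calls, and Lox and Plod2 gained one. Col1a1 was then at 2.16 ± 0.30 (SE; adjusted p = 0.00522), Col3a1 at 1.85 ± 0.26 (adjusted p = 0.00576) and Col4a1 at 1.24 ± 0.22 (adjusted p = 0.0113).

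The largest differences were those of Col1a1 and Col3a1, both fibrillar chains. Col1a1 (chr11:94936224-94953042), a chain of type I collagen, had scaled counts of 840, 762, 1597, 1655 and 1151 in EtOH-fed WT mice and 3256, 3903, 8331 and 4083 in EtOH-fed Apoe KO mice. In pair-fed mice it was 1550, 1741, 967 and 2708 with Apoe and 1661, 1472, 1284, 2342 and 1162 without. The 4 EtOH-fed Apoe KO mice were above all 14 other mice, and mouse 4 stood far above the other 3. The log2 difference by genotype under ethanol was 1.996 ± 0.28 (SE; adjusted p = 0.00216), a 3.99-fold higher level.

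Col1a2 (chr6:4504814-4541544), the partner chain of Col1a1 in type I collagen, was 1221, 982, 1713, 1837 and 1493 in EtOH-fed WT and 3013, 3406, 6370 and 3422 in EtOH-fed Apoe KO mice. Pair-fed WT mice had 1619, 1312, 1027 and 2142, and pair-fed Apoe KO mice 1577, 1698, 1107, 2137 and 1411. The EtOH-fed Apoe KO values did not overlap with any other group. The log2 difference by genotype under ethanol was 1.45 ± 0.22 (SE; adjusted p = 0.00331).

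Col3a1 (chr1:45311538-45349706), the chain of type III collagen, was 1239, 1065, 1618, 2058 and 1384 in EtOH-fed WT and 3946, 3705, 8732 and 4249 in EtOH-fed Apoe KO mice. It was 2074, 1872, 1423 and 2866 in pair-fed WT and 1937, 2386, 1679, 2914 and 1661 in pair-fed Apoe KO mice. Again the 4 mice lay above the other 14, with mouse 4 apart. The log2 difference was 1.75 ± 0.24 (SE; adjusted p = 0.00209).

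The type V chains, which nucleate fibrils of type I collagen, differed among themselves. Col5a2 was 139 to 270 in EtOH-fed WT and 366 to 880 in EtOH-fed Apoe KO mice (log2 difference 1.41 ± 0.26 SE, adjusted p = 0.00904), without overlap. Col5a1 was 334 to 485 and 590 to 1126 (0.85 ± 0.20 SE, adjusted p = 0.0290), also without overlap; its call was lost without EtOH-fed WT mouse 1 or 2 or EtOH-fed Apoe KO mouse 1 or 4 (adjusted p = 0.0571 to 0.0796). Col5a3 was 342 to 734 and 337 to 725, with a log2 difference of −0.15 ± 0.24 (SE; adjusted p = 0.808). Col11a2 was low, at 59 to 164 in EtOH-fed WT and 61 to 93 in EtOH-fed Apoe KO mice.

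Col27a1 (chr4:63214004-63334991), a fibrillar chain of cartilage, did not move with the others. It was 921, 975, 1544, 1267 and 3315 in EtOH-fed WT and 522, 470, 950 and 888 in EtOH-fed Apoe KO mice. EtOH-fed WT mouse 5 was well above the other 4, and the groups overlapped by a narrow margin. The log2 difference was −1.08 ± 0.33 (SE), with an adjusted p of 0.0840 as deposited and a call as lower with median-of-ratios size factors or with all 4 groups in the fit.

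**Figure D2:**
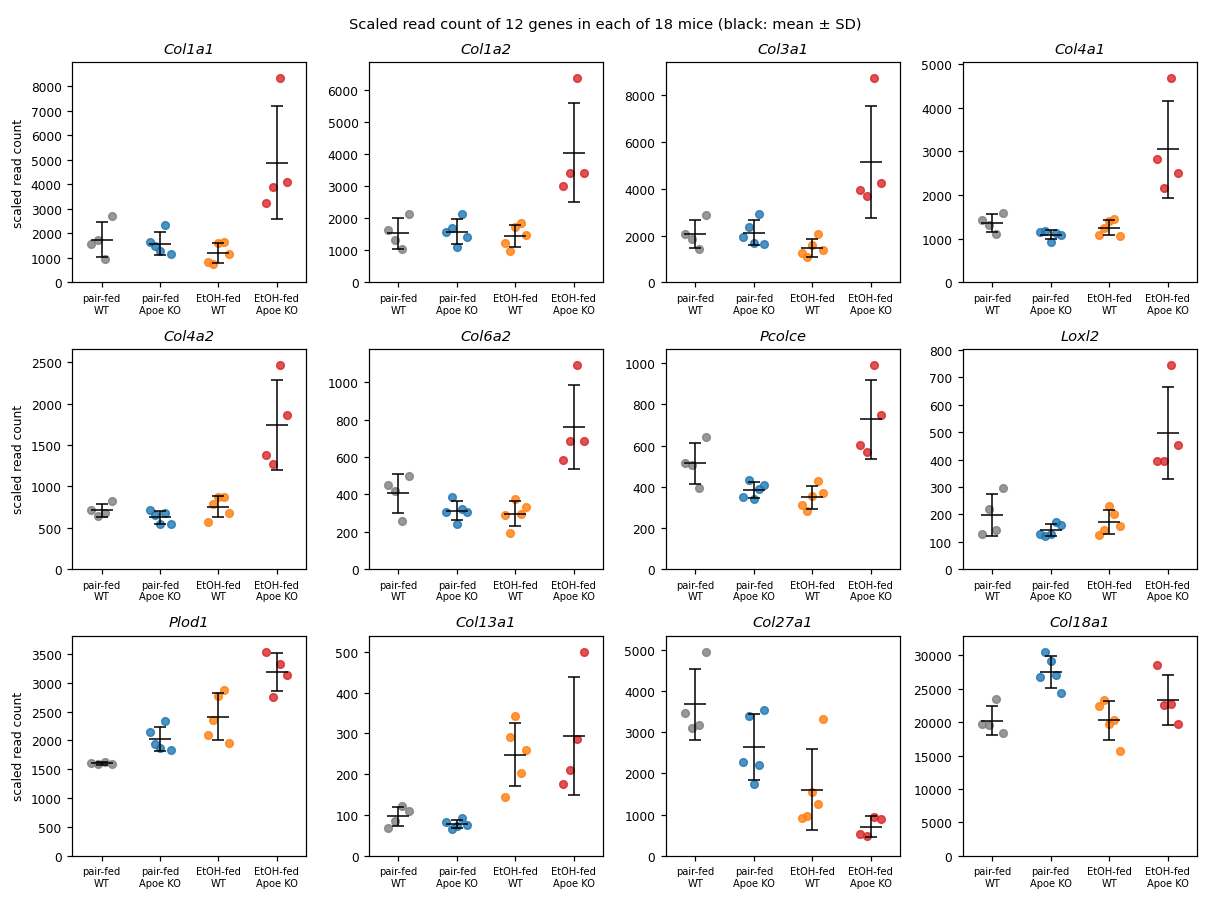
Scaled read count of 12 genes in each mouse (points) by group, with mean and SD in black; each vertical axis starts at 0. In the panels of Col1a1, Col1a2, Col3a1, Col4a1, Col4a2, Col6a2 and Loxl2 the 4 EtOH-fed Apoe KO mice lie above the other 14. Plod1 and Col13a1 are higher in both EtOH-fed groups than in their pair-fed groups, and Col27a1 is lower apart from EtOH-fed WT mouse 5.

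Among the basement membrane chains, Col4a1 and Col4a2, which assemble into the common type IV network, rose and the other 3 did not pass the test. Col4a1 was 1092, 1247, 1395, 1452 and 1058 in EtOH-fed WT and 2830, 2165, 4671 and 2503 in EtOH-fed Apoe KO mice. Pair-feeding gave 1418, 1306, 1103 and 1592 in WT and 1156, 1182, 933, 1118 and 1082 in Apoe KO mice. All 4 EtOH-fed Apoe KO mice were thus above every other mouse, by a log2 difference from EtOH-fed WT of 1.23 ± 0.19 (SE; adjusted p = 0.00355).

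Col4a2 was 573, 786, 867, 870 and 672 in EtOH-fed WT and 1381, 1272, 2465 and 1865 in EtOH-fed Apoe KO mice. Pair-fed WT mice had 709, 636, 680 and 820 and pair-fed Apoe KO mice 709, 651, 548, 682 and 544. The separation was again complete (log2 difference 1.18 ± 0.19 SE, adjusted p = 0.00464). Col4a3, Col4a4 and Col4a5, chains that are abundant in kidney, lay between 23 and 178 in all 18 mice, with log2 differences from −0.05 to 0.22 and adjusted p-values of 0.680 to 0.964. Thus the head-to-head pair Col4a1 and Col4a2 was called and the head-to-head pair Col4a3 and Col4a4 was not, at levels at which 1 read counts for several units in some mice.

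All 3 type VI chains were higher. Col6a2 (chr10:76595762-76623630) was 288, 192, 375, 296 and 335 in EtOH-fed WT and 582, 687, 1093 and 688 in EtOH-fed Apoe KO mice, after 449, 420, 255 and 499 in pair-fed WT and 307, 388, 241, 321 and 307 in pair-fed Apoe KO mice. Its log2 difference was 1.35 ± 0.21 (SE; adjusted p = 0.00389), with no overlap between the EtOH-fed groups. Col6a1 had a difference of 1.12 ± 0.22 (adjusted p = 0.0123), and 3 of its 4 EtOH-fed Apoe KO values lay close together (1147, 1103 and 1119) while mouse 4 had 2235. Col6a3 had a difference of 0.96 ± 0.22 (adjusted p = 0.0261), and its call was lost without EtOH-fed WT mouse 1 or EtOH-fed Apoe KO mouse 1 or 4 (adjusted p = 0.0508 to 0.0829).

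The remaining chains were not called in this comparison. The 4 FACIT chains had log2 differences of −0.50 (Col20a1) to 0.99 (Col16a1), and Col14a1, the FACIT chain with the highest level, was 1257 to 1515 in EtOH-fed WT and 1437 to 2538 in EtOH-fed Apoe KO mice (0.46 ± 0.15 SE, adjusted p = 0.0972). Col18a1 was 15722 to 23267 and 19667 to 28608 (0.21 ± 0.14 SE, adjusted p = 0.475). Col7a1, Col8a1 and Col8a2 had means under 50 over the 18 mice. Col7a1 was listed at 0 in EtOH-fed Apoe KO mouse 2 and at 94 in mouse 4; since 1 read in mouse 2 stands for 2.39 units, a count of 0 allows a value up to 7.16 (3 reads, counting error only).

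The 4 enzymes and helpers called, Loxl2, Loxl1, Pcolce and Adamts2, all act outside the cell, as do Lox, Loxl3, Loxl4 and Bmp1, which were not called. Loxl2 (chr14:69609068-69695834), a lysyl oxidase that acts on type IV collagen, was 125, 142, 229, 202 and 159 in EtOH-fed WT and 396, 394, 745 and 454 in EtOH-fed Apoe KO mice. Pair-fed WT mice had 127, 219, 144 and 296, and pair-fed Apoe KO mice 129, 120, 129, 172 and 162. The 4 EtOH-fed Apoe KO mice were above all others, and the log2 difference was 1.51 ± 0.23 (SE; adjusted p = 0.00331). Loxl1, a lysyl oxidase known from elastic fibres, overlapped between the groups (72 to 151 against 141 to 459; 1.31 ± 0.33 SE, adjusted p = 0.0405), and its call was lost without EtOH-fed WT mouse 1, 2 or 4 or EtOH-fed Apoe KO mouse 1, 4 or 5 (adjusted p = 0.0602 to 0.110). Lox itself had scaled counts of 12 to 56 and 39 to 192 (1.57 ± 0.47 SE, adjusted p = 0.0802), and 1.92 ± 0.47 (adjusted p = 0.0422) without EtOH-fed Apoe KO mouse 1. Loxl3 and Loxl4 had log2 differences of 0.73 and 0.29 that were not called.

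Of the processing genes, Pcolce (chr5:137605103-137613784) was 309, 284, 356, 427 and 370 in EtOH-fed WT and 605, 568, 991 and 750 in EtOH-fed Apoe KO mice, without overlap (1.04 ± 0.18 SE, adjusted p = 0.00629). In pair-fed mice it was 513, 505, 395 and 640 in WT and 349, 432, 340, 387 and 409 in Apoe KO mice, so that the highest pair-fed WT mouse reached the level of the lower EtOH-fed Apoe KO mice. Adamts2, the N-proteinase, was 176 to 347 and 415 to 761 (1.046 ± 0.22 SE, adjusted p = 0.0158), and its adjusted p was 0.0537 without EtOH-fed Apoe KO mouse 4. Bmp1 was 5029 to 7439 and 4151 to 5504, a log2 difference of −0.26 ± 0.13 (SE; adjusted p = 0.316). The intracellular enzymes came to log2 differences of 0.56 for P4ha1, 0.53 for P4ha2, 0.41 for Plod1, 1.22 for Plod2, 0.21 for Plod3 and 0.83 for Serpinh1, with adjusted p-values of 0.0554 to 0.503. Some of these were called under other settings: Serpinh1, P4ha2 and Plod1 with all 4 groups in one fit, Serpinh1 with sample weights, and Plod2 without EtOH-fed Apoe KO mouse 1 (1.45 ± 0.36, adjusted p = 0.0428). Whether called and uncalled enzymes differ from each other was not tested.

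**Figure D3:**
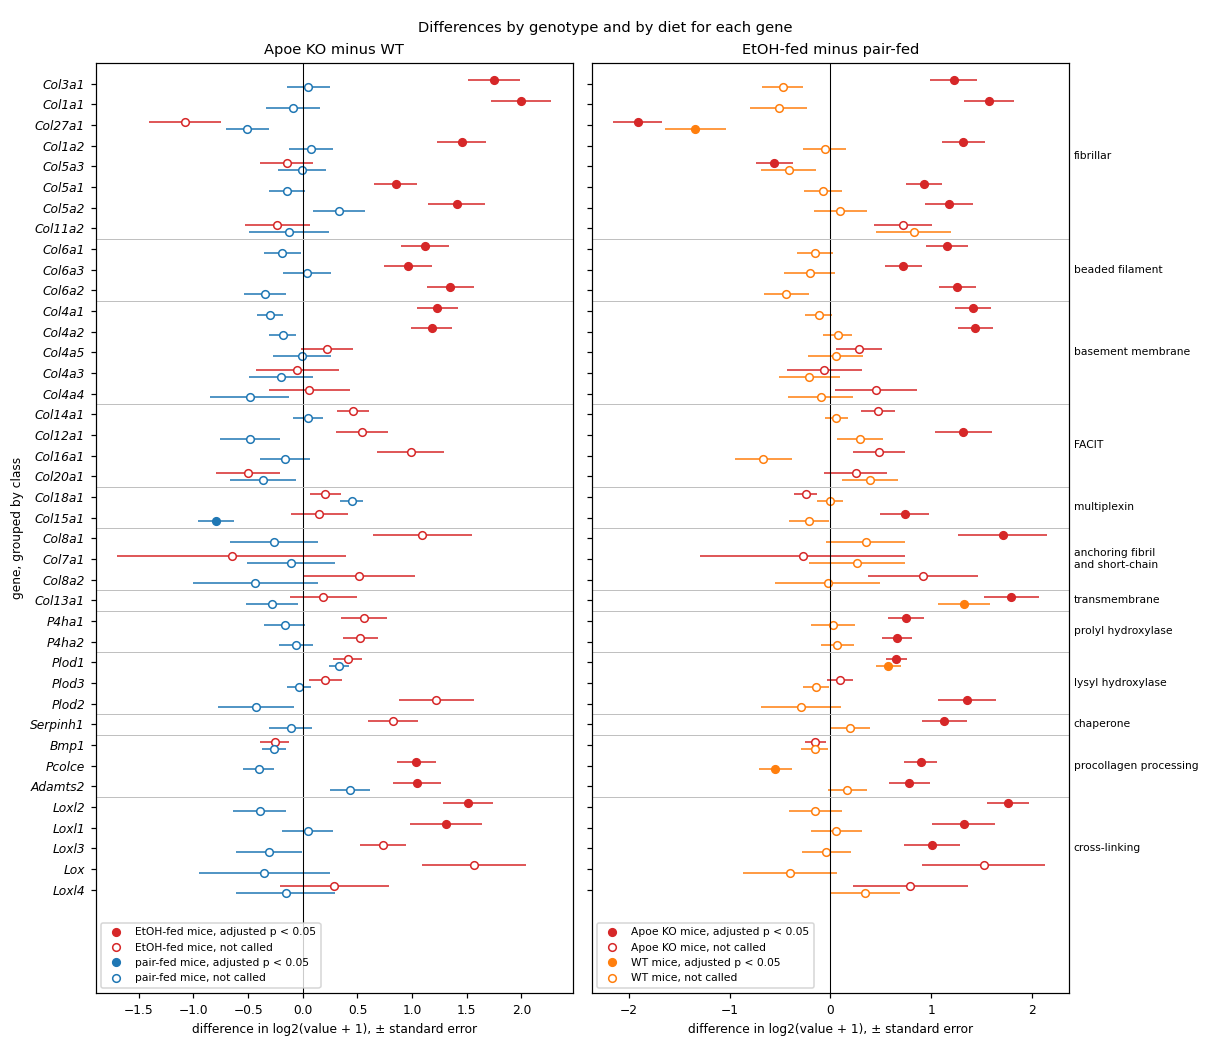
Difference in log2(value + 1) with its standard error for each of the 40 genes, by genotype (left: EtOH-fed mice red, pair-fed mice blue) and by diet (right: Apoe KO red, WT orange). Filled points have an adjusted p under 0.05: 14 red points on the left are filled and all lie above 0, only Col15a1 is filled among the blue points, and on the right 26 red and 4 orange points are filled.

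The same genotype comparison in pair-fed mice gave 0 genes higher and 1 lower of 40, beside 0.870% higher and 0.864% lower of all genes. At an unadjusted p under 0.05, 3 were higher and 5 lower, beside 1589 and 1402 of all 15052 genes. The median log2 difference was −0.16, beside −0.005 over all genes. The gene called was Col15a1, a multiplexin of basement membranes near vessels. It was 461, 660, 488 and 578 in pair-fed WT and 292, 426, 289, 314 and 260 in pair-fed Apoe KO mice, without overlap (log2 difference −0.79 ± 0.16 SE, adjusted p = 0.0249). The call was lost without pair-fed WT mouse 2 or 4 or pair-fed Apoe KO mouse 1, 3 or 4 (adjusted p = 0.0550 to 0.0990). The other multiplexin, Col18a1, was 18328 to 23421 in pair-fed WT and 24338 to 30546 in pair-fed Apoe KO mice, also without overlap, with a log2 difference of 0.45 ± 0.11 (SE; adjusted p = 0.0519).

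The interaction of diet and genotype, fitted on all 18 mice, asks whether the genotype difference under ethanol exceeds that under pair-feeding. It was called for 10 of 40 genes, all in the positive direction, beside 2.60% of all genes in the positive and 0.239% in the negative direction. The genes were Col1a1 (log2 2.08 ± 0.42 SE, adjusted p = 0.0113), Loxl2 (1.91 ± 0.35, adjusted p = 0.00690), Col3a1 (1.70 ± 0.34, adjusted p = 0.0113), Col6a2 (1.70 ± 0.31, adjusted p = 0.00659) and Col4a1 (1.53 ± 0.24, adjusted p = 0.00329), together with Pcolce, Col1a2, Col4a2, Col6a1 and Col5a1. All 10 were also called for Apoe loss under ethanol alone, a comparison that uses the same EtOH-fed mice. The call of Col6a1 was lost without pair-fed WT mouse 4 (adjusted p = 0.0639), that of Col1a2 without pair-fed WT mouse 1 or 4, pair-fed Apoe KO mouse 3, EtOH-fed WT mouse 1 or EtOH-fed Apoe KO mouse 4 (0.0528 to 0.0831), and that of Col5a1, at an adjusted p of 0.04996, without any of 13 mice (0.0566 to 0.135), namely every mouse other than pair-fed WT mouse 3, EtOH-fed WT mice 3 and 5 and EtOH-fed Apoe KO mice 2 and 5. Without EtOH-fed Apoe KO mouse 1, 9 of the 40 were called, all positive, beside 445 positive and 34 negative of all genes. With all mice and an unadjusted p under 0.05, the interaction was positive in 23 of the 40 and negative in 0. Of all 15052 genes, 1919 and 532 were. A missed threshold does not show equal genotype effects.

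Ethanol was compared with pair-feeding within each genotype. In WT mice 2 genes were higher and 2 lower of 40, beside 6.19% and 6.52% of all genes, and the median log2 difference was −0.05 (all genes −0.01). In Apoe KO mice 24 were higher and 2 lower, beside 16.3% and 6.92% of all genes, with a median of 0.84 (all genes 0.13). With median-of-ratios size factors the medians in Apoe KO mice were 0.72 and −7e-05, and 23 genes were higher and 2 lower, whereas calls in the whole table went from 2446 higher and 1042 lower to 1646 and 1617. Without EtOH-fed Apoe KO mouse 1, 23 were higher and 2 lower, beside 2377 and 943 of all genes. Col18a1 was newly called lower (−0.35 ± 0.10 SE, adjusted p = 0.0335), and Col15a1 and Col5a3 were no longer called. The 24 included 14 of the 26 chains and 10 of the 14 enzymes and chaperones.

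In Apoe KO mice the genes called included several that act inside the cell. P4ha1 and P4ha2, the catalytic prolyl hydroxylase subunits, rose by 0.75 ± 0.18 (SE; adjusted p = 0.00916) and 0.66 ± 0.15 (adjusted p = 0.00687). Plod2, the lysyl hydroxylase of collagen telopeptides, rose by 1.35 ± 0.29 (adjusted p = 0.00498), and Serpinh1 by 1.13 ± 0.23 (adjusted p = 0.00335). Fibrillar and network chains called with the largest differences were Col1a1 (1.57 ± 0.25, adjusted p = 0.000696), Col4a2 (1.43 ± 0.17, adjusted p = 0.000123) and Col4a1 (1.41 ± 0.18, adjusted p = 0.000152), and Loxl2 had 1.76 ± 0.21 (adjusted p = 9.65e-05), the smallest adjusted p of all 40 genes in any comparison. Col12a1, a FACIT chain, was 53 to 124 in pair-fed and 165 to 348 in EtOH-fed Apoe KO mice (1.32 ± 0.29, adjusted p = 0.00525). All 14 genes that were higher for Apoe loss under ethanol were called here too, and both comparisons contain the same 4 EtOH-fed Apoe KO mice.

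Several of these calls depended on single mice. Col8a1, a short-chain collagen of vessel walls, was 15 to 34 in pair-fed and 28, 86, 86 and 131 in EtOH-fed Apoe KO mice (1.71 ± 0.44 SE, adjusted p = 0.0139, and 0.0532 without EtOH-fed Apoe KO mouse 5). Loxl3 rose by 1.003 (adjusted p = 0.0189, and 0.0514 without EtOH-fed Apoe KO mouse 4). Col15a1 rose by 0.73 (adjusted p = 0.0397), which was lost without pair-fed Apoe KO mouse 1, 3, 4 or 5 or EtOH-fed Apoe KO mouse 1, 4 or 5 (0.0587 to 0.1002). Col5a3, named after its values were seen, fell by 0.56 on the log2 scale (adjusted p = 0.0409), which was lost without pair-fed Apoe KO mouse 1, 3, 4 or 5 or EtOH-fed Apoe KO mouse 1, 2 or 5 (0.0519 to 0.108).

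Of the 4 genes called for ethanol in both genotypes, Col13a1 and Plod1 were higher in both, Col27a1 was lower in both, and Pcolce went in opposite directions. Col13a1 (chr10:61838236-61979108), a transmembrane collagen of cell contacts, was 69, 85, 123 and 109 in pair-fed WT and 143, 290, 343, 203 and 260 in EtOH-fed WT mice (log2 difference 1.32 ± 0.26 SE, adjusted p = 0.00555). It was 83, 65, 73, 93 and 75 in pair-fed Apoe KO and 177, 210, 287 and 500 in EtOH-fed Apoe KO mice (1.79 ± 0.27 SE, adjusted p = 0.000565). All 9 EtOH-fed mice were above all 9 pair-fed mice, while the EtOH-fed genotypes overlapped (0.19 ± 0.30 SE, adjusted p = 0.805).

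Plod1 (chr4:147909753-147936767), which hydroxylates lysine in the helix, was 1602, 1589, 1634 and 1584 in pair-fed WT and 2097, 2356, 2774, 2878 and 1962 in EtOH-fed WT mice (0.57 ± 0.12 SE, adjusted p = 0.00857). It was 2150, 1938, 1875, 2333 and 1826 in pair-fed Apoe KO and 3536, 2752, 3320 and 3134 in EtOH-fed Apoe KO mice (0.65 ± 0.10 SE, adjusted p = 0.000715). The pair-fed WT values were the tightest of the 4 groups, and every other mouse lay above them. By genotype, Plod1 differed by 0.33 in pair-fed and 0.41 in EtOH-fed mice, with adjusted p-values of 0.0828 and 0.0957.

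Col27a1 went the other way. Its scaled counts were 3469, 3098, 3185 and 4951 in pair-fed WT mice, and the EtOH-fed WT values given above were lower apart from mouse 5, at 3315, which reached the pair-fed range (−1.34 ± 0.30 SE, adjusted p = 0.0117). In pair-fed Apoe KO mice it was 2282, 3403, 1749, 2194 and 3548, all above the 4 EtOH-fed Apoe KO mice (−1.91 ± 0.24 SE, adjusted p = 0.000161), a 3.76-fold lower level under ethanol. Pcolce was called lower for ethanol in WT mice (−0.55 ± 0.16 SE, adjusted p = 0.0434); that call was lost without pair-fed WT mouse 1, 2 or 4 or EtOH-fed WT mouse 1, 2 or 3 (0.0683 to 0.133). In Apoe KO mice Pcolce rose under ethanol (0.90 ± 0.16 SE, adjusted p = 0.00173), and the interaction was 1.44 ± 0.24 (SE; adjusted p = 0.00443).

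Partner chains of one collagen, and Col1a1 of type I with Col3a1 of type III, were compared as log2 ratios of scaled counts within each mouse. These ratios do not depend on the scaling between mice. In all, 16 differences were tested (4 ratios in 4 comparisons, exact two-sided permutation tests, Benjamini-Hochberg over the 16), and 0 passed. By the design the smallest p with 4 and 5 mice is 0.0159, and 2 of the 16 differences reached it. Adjustment over the 16 took these 2 to 0.127, so that even groups fully apart gave no call here. The lack of calls therefore does not show equal ratios. The log2 ratio of Col1a1 to Col1a2 was −0.54 to −0.10 in EtOH-fed WT and 0.11 to 0.39 in EtOH-fed Apoe KO mice, without overlap (difference 0.54, exact permutation p = 0.0159, adjusted p = 0.127). It was −0.09 to 0.41 in pair-fed WT mice, also above the EtOH-fed WT mice (difference −0.46, exact permutation p = 0.0159, adjusted p = 0.127). The log2 ratio of Col1a1 to Col3a1 was −0.70 to −0.22 in pair-fed and −0.28 to 0.08 in EtOH-fed Apoe KO mice (exact permutation p = 0.0317, adjusted p = 0.169). The ratios of Col4a1 to Col4a2 and of Col6a1 to Col6a2 had exact permutation p-values of 0.0635 to 0.873. For Col4a1 to Col4a2 by genotype under ethanol, the means were 0.79 ± 0.27 (SD, n = 4) and 0.73 ± 0.11 (SD, n = 5).

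**Figure D4:**
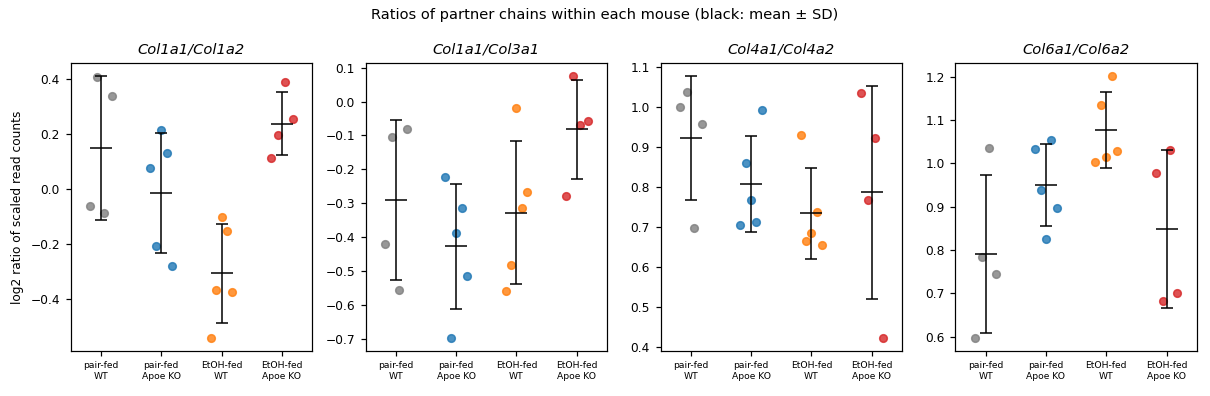
Log2 ratio of scaled read counts within each mouse (points) by group, with mean and SD in black. The ratios are of partner chains of one collagen and of Col1a1 (type I) to Col3a1 (type III). The vertical axes differ between panels and do not start at 0. The ratio of Col1a1 to Col1a2 in EtOH-fed WT mice lies at −0.54 to −0.10, below all 4 EtOH-fed Apoe KO mice and all 4 pair-fed WT mice, while the other panels show overlap between the groups compared.

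The spread of the members was uneven between groups. Among the 4 EtOH-fed Apoe KO mice, mouse 4 had the highest value for 31 of the 40 genes and for all 14 genes called in the genotype comparison, and mouse 2 had the lowest for 10 of those 14. Mouse 4 had an estimated 7.88 M reads on genes. Without it, Apoe loss under ethanol left 10 of 40 genes higher and 0 lower, at a median log2 difference of 0.53. Calls over all genes went from 639 higher and 67 lower to 306 and 47. The members that lost their calls were Adamts2, Col5a1, Col6a3 and Loxl1. Col1a1 was then at 1.71 (adjusted p = 0.00435), Col3a1 at 1.46 (adjusted p = 0.00256) and Col4a1 at 1.003 (adjusted p = 0.00435). In pair-fed WT mice, mouse 4 had the highest value for 25 of the 40 genes and mouse 3 the lowest for 23. In the other groups the highest values were shared out: in EtOH-fed WT mice, mice 5, 3 and 4 were highest for 15, 12 and 12 genes, and among pair-fed Apoe KO mice, mice 2 and 4 were highest for 15 and 12. Whether members vary together was not tested.

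Other genes of the pathway were read from a list of 28 further enzymes, transport factors and receptors, of which 24 were in the table. For Apoe loss in EtOH-fed mice 3 were higher and 0 lower (4.25% and 0.445% of all genes): Pcolce2, a second enhancer of procollagen cleavage (1.34 ± 0.29 SE, adjusted p = 0.0215), Fkbp10, a chaperone of type I procollagen (1.24 ± 0.26, adjusted p = 0.0158), and Ddr1, a receptor for collagen (0.99 ± 0.21, adjusted p = 0.0194). Without EtOH-fed Apoe KO mouse 1, Pcolce2 was not called (1.26 ± 0.33, adjusted p = 0.0538). In pair-fed mice 0 were called in the genotype comparison. For ethanol in WT mice 0 of the 24 were called, though Pcolce2 stood at −0.78 ± 0.25 (SE; adjusted p = 0.0557). In Apoe KO mice 7 were higher (Fkbp10, P3h3, Ddr2, P3h1, Colgalt1, Fkbp7 and P3h2) and 2 lower (Mia3 and Tmem38b), beside 16.3% and 6.92% of all genes; the 2 lower of 24 are near that share. Colgalt1 and P3h2 were not called without EtOH-fed Apoe KO mouse 1. In the interaction Fkbp10 was called (1.85 ± 0.36, adjusted p = 0.0102).

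Markers of cell types were read beside these results, since in bulk tissue more cells of a type and more RNA per cell cannot be told apart. No marker was at 0 in all mice of a group. For Apoe loss in EtOH-fed mice, 0 of 10 markers of hepatic stellate cells were called, among them Lrat, Des and Pdgfrb, with a median log2 difference of 0.13. The sum of the 10 was 10717 to 16393 in EtOH-fed WT and 9210 to 15028 in EtOH-fed Apoe KO mice. Ecm1 alone was 4579 to 8165 and 3633 to 5894, the largest part of the sum in each mouse. Of 5 myofibroblast markers, Timp1 (2.30 ± 0.52 SE, adjusted p = 0.0256) and Fbln2 (1.76 ± 0.41, adjusted p = 0.0277) were higher, Acta2 was 19 to 173 and 34 to 319 (1.16 ± 0.67, adjusted p = 0.388), and the sum was 714 to 994 and 821 to 2529. The lowest sum was that of EtOH-fed Apoe KO mouse 1; without it the range was 1882 to 2529 and Thy1 was called as well. All 5 macrophage markers were higher, with sums of 4654 to 8461 and 11302 to 20840 that did not overlap. Without EtOH-fed Apoe KO mouse 1, which had the highest sum, the range was 11302 to 17007 and all 5 were called too. Of 4 biliary markers 1, Krt19, was higher (2.05 ± 0.53 SE, adjusted p = 0.0445). Of 7 markers of sinusoidal endothelium and 5 of hepatocytes 0 were called. These counts stand beside 4.25% of all genes higher and 0.445% lower. The part of these cell types in the collagen differences was not tested.

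For ethanol in Apoe KO mice, 5 of 10 stellate cell markers (Des, Lrat, Pdgfrb, Tcf21 and Colec11), 6 of 7 endothelial, 3 of 5 myofibroblast, 3 of 5 macrophage and 1 of 4 biliary markers were higher, and of 5 hepatocyte markers Cps1 was higher and Cyp2e1 lower, while 16.3% of all genes were called higher and 6.92% lower. Without EtOH-fed Apoe KO mouse 1 the stellate count fell to 2 of 10 (Des and Lrat), the myofibroblast count rose to 5 of 5 and the biliary count to 2 of 4, and the endothelial and macrophage counts stayed at 6 and 3. Of all genes, 2377 were then called higher and 943 lower. The endothelial sum was 4203 to 5905 in pair-fed and 7457 to 12308 in EtOH-fed Apoe KO mice, and the stellate sum was 8818 to 10974 and 9210 to 15028. For ethanol in WT mice, 5 of 7 endothelial markers were higher and 0 of 10 stellate markers were called, while 3 of 5 macrophage, 2 of 5 myofibroblast and 1 of 4 biliary markers were lower and 1 of 5 hepatocyte markers, Cps1, was higher, beside 6.19% of all genes higher and 6.52% lower. In pair-fed Apoe KO compared with WT mice, where Col15a1 was lower, 2 of 7 endothelial markers (Clec4g and Fcgr2b), 1 of 10 stellate markers (Ecm1) and 1 of 5 myofibroblast markers (Fbln2) were lower too, beside 0.864% of all genes. Their part in the differences of Col13a1, Plod1, Col27a1 and Col15a1 was not tested.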

How the data were processed

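Liver RNA of 18 mice had been selected for polyA, and per the labels and the methods of the study reads were trimmed with Trimmomatic, aligned with HISAT2 and counted with featureCounts, with the build given as GRCm38. The authors deposited 1 table of signal values, which are counts of reads per gene, brought to almost the same sum in each mouse and rounded; the scaling step is not given in the sources used here. The table also holds the authors' own DESeq2 comparisons, which were not used. A further 195 rows repeat 56 genes with the same numbers, of which 1 row each was kept.

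The test was limma 3.58.1 (R 4.3.3) with an intensity trend in its moderated variances, applied to log2(value + 1) of the mice in the groups compared (the interaction on all 18), with Benjamini-Hochberg adjustment over 15052 genes. Fold changes are on this scale, which understates those of low genes. On simulated data for Apoe loss in EtOH-fed mice (15052 genes), the test recovered 70 of 89 genes changed by 1 on the log2 scale. It recovered 110 of 111 changed by 2, and there were 9 false calls. For the interaction it recovered 61 of 99 and 93 of 101, with 4 false calls. These figures were not obtained for the members themselves, and so do not give the power or error rate for them. The changed genes were drawn only from those with a mean over 50 in EtOH-fed mice, so recovery of lower genes was not tested. The spread measured within groups was scaled down before counting noise was added, and genes varied independently of each other. Recovery where a single mouse is highest for most members was not tested either. Depth was estimated from the spacing of values below 150, and sets the precision of low genes. Each mouse counts as 1 replicate. Exact permutation tests used scipy 1.17.1, and figures matplotlib 3.10.9. Coordinates and exon lengths (union of exons) are from GENCODE M21.

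Genes named are those called in any of 5 contrasts, at most 25 by smallest adjusted p, and the gene with the highest mean of each class; values in every mouse are given for the 8 smallest adjusted p-values for Apoe loss in EtOH-fed mice and the 4 smallest for each ethanol comparison. Other members named (such as Col5a3, Col11a2, Lox, Plod3, Col16a1, Col20a1 and Col4a3 to Col4a5) were chosen after their values were seen, to account for each. Members and lists were chosen with earlier results of these data known. Tried as alternatives were a median-of-ratios rescaling, a pseudocount of 10, a mean of at least 50, no trend, sample weights, a block on mouse number, all 4 groups in one fit, and leaving out each mouse. Markers, other pathway genes and chain shares without EtOH-fed Apoe KO mouse 1 were added after seeing the data.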

Additional observations from a re-analysis of the deposited data

Results flagged for a closer look

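In 10 genes the genotype difference under ethanol differed from that under pair-feeding by the interaction test (limma, Benjamini-Hochberg over all genes), always in the positive direction. The log2 interaction was 1.53 for Col4a1, 1.44 for Pcolce, 1.36 for Col4a2, 1.70 for Col6a2, 1.91 for Loxl2, 1.70 for Col3a1, 2.08 for Col1a1, 1.31 for Col6a1, 1.38 for Col1a2 and 0.997 for Col5a1.

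A mouse stood apart from the others of its group in 6 of 116 groups of values (29 named genes in 4 groups), where chance gives about 1 in 20, or 5.8. The measure is the gap to the nearest mouse on the log2 scale divided by the range of the group. EtOH-fed Apoe KO mouse 4 was highest and apart for Col1a2 (6370, gap 0.830 of the range), Col3a1 (8732, 0.840) and Col6a1 (2235, 0.945). Pair-fed WT mouse 4 was lowest and apart for Col8a1 (18, 0.933), and pair-fed Apoe KO mouse 3 was lowest and apart for Loxl3 (40, 0.796) and P4ha1 (426, 0.770). Without EtOH-fed Apoe KO mouse 4 the log2 differences from EtOH-fed WT mice were 1.21 for Col1a2, 1.46 for Col3a1 and 0.87 for Col6a1, with adjusted p-values of 0.00700, 0.00256 and 0.0225.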

How the results depend on the processing

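The 55 calls of members in the 5 contrasts kept their direction in all 959 values over the alternatives and passed the threshold in 881 of them; 41 calls passed under every alternative. Without an intensity trend, 9 members were higher for Apoe loss in EtOH-fed mice. Over all genes, 639 higher and 67 lower calls became 337 and 31. In pair-fed mice 0 members were lower, beside 32 of all genes. For ethanol, 1 member each was lower in WT and in Apoe KO mice, beside 764 and 824 of all genes. In the interaction 8 members were called, beside 294 positive and 17 negative of all genes. For Apoe loss in EtOH-fed mice, median-of-ratios size factors added 1 lower call (Col27a1), and all 4 groups in one fit gave 18 higher and 1 lower, adding Col16a1, P4ha2, Plod1, Serpinh1 and, lower, Col27a1. Over all genes the size factors gave 379 higher and 127 lower calls, and all 4 groups in one fit gave 854 and 108. For Apoe loss in pair-fed mice, a pseudocount of 10, a mean of at least 50 and sample weights each gave 1 higher call (Col18a1), and all 4 groups in one fit left 0 lower calls. Higher calls over all genes were then 180, 176 (of 12377 genes tested) and 272, in that order, compared with 131 in the main fit. Lower calls over all genes were 114 with all 4 groups in one fit, compared with 130. All 4 groups in one fit left 1 lower call for ethanol in Apoe KO mice, beside 1070 of all genes. The cause was not tested.

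Leaving out 1 mouse gave 10 to 17 higher calls for Apoe loss in EtOH-fed mice, 0 to 1 higher and 0 to 1 lower in pair-fed mice, 1 to 3 lower for ethanol in WT mice, 22 to 25 higher and 1 to 2 lower for ethanol in Apoe KO mice, and 7 to 13 in the interaction. Over all genes, higher calls for Apoe loss in EtOH-fed mice were then 289 to 565. In pair-fed mice 35 to 362 were higher and 38 to 308 lower. For ethanol, 595 to 1033 were lower in WT mice, and 1805 to 2406 higher and 806 to 1021 lower in Apoe KO mice. In the interaction 157 to 506 were positive. Among the ratios, none of which was called, Col1a1 to Col3a1 for ethanol in WT mice (−0.04 with all mice) ranged from −0.13 to 0.0322, Col4a1 to Col4a2 for ethanol in Apoe KO mice (−0.02) from −0.10 to 0.101, and Col4a1 to Col4a2 for Apoe loss in EtOH-fed mice (0.05) from −0.0301 to 0.17, and so turned direction.

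Mouse numbers were not taken to pair the mice, since that required every pair to correlate over 0.1: deviations of same-numbered mice correlated at −0.02 to 0.23 in EtOH-fed mice of both genotypes, where 3 of 4 pairs were over 0.1, and at −0.22 to 0.16 in the other comparisons. As a hint from the data only, 6 of 8 EtOH-fed mice correlated best with their own number, and 2 to 3 of 8 did in the other comparisons. With mouse number as a block, 21 members were higher and 1 lower for Apoe loss in EtOH-fed mice (gaining Col16a1, Lox, Loxl3, P4ha2, Plod1, Plod2, Serpinh1 and, lower, Col27a1), 1 was lower for ethanol in WT mice, 23 were higher and 2 lower for ethanol in Apoe KO mice, and 9 were called in the interaction. Over all genes the block gave 961 higher and 122 lower calls for Apoe loss in EtOH-fed mice, compared with 639 and 67 in the main fit. For ethanol it gave 756 lower in WT mice, and 1931 higher and 841 lower in Apoe KO mice. In the interaction 522 of all genes were positive and 53 negative. Outside the interaction, the block kept only mouse numbers present in both groups. It thus left out EtOH-fed WT mouse 3 for Apoe loss in EtOH-fed mice and pair-fed Apoe KO mouse 5 for that in pair-fed mice. For ethanol, EtOH-fed WT mouse 5 and pair-fed Apoe KO mouse 3 were left out. Without EtOH-fed WT mouse 3 alone, 15 members were higher and 0 lower, beside 520 and 58 of all genes. The part of the block itself was not tested. Depth limits the 6 members with a mean under 50.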
